A study of Schizosaccharomyces pombe with 4 samples.

Results

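The inv1 gene of the fission yeast Schizosaccharomyces pombe was followed with 59 tiling probes on chromosome 3. They were all the non-control probes of one stretch of 2960 bp, among 43993 on the array. Each probe is a 60-base oligonucleotide and neighbouring tiles start 50 bp apart, so that they overlap by 10 bp and are not independent measurements. By the placement used here, 16 tiles lie upstream of the start codon, 35 in the coding sequence and 8 downstream of the stop codon.

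Invertase is a secreted enzyme that splits sucrose into glucose and fructose. In fission yeast inv1 is kept off by glucose, through the zinc-finger repressor Scr1 and cyclic AMP signalling, and is switched on when glucose gives way to sucrose. The inv1 promoter can therefore drive another protein on demand, and here the labels name a plasmid, pINV1-H3.2-FLAG, which makes FLAG-tagged histone H3 once sucrose is given. The same shift thus acts on the chromosomal inv1 gene and on the source of the tagged histone. New H3 enters chromatin behind replication forks and also where nucleosomes are replaced, which is frequent at promoters and in transcribed genes.

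Cells of 4 genotypes all carried that plasmid: wild type (WT), clr3D cells, IRD2 cells and cells with both alterations (IRD2 clr3D, called the double mutant). The clr3 gene encodes a histone deacetylase of heterochromatin. What IRD2 stands for is not defined in the labels. All cultures grew in EMM-Leu with 8% glucose, were held in S phase with 15 mM hydroxyurea for 4 h, and were then moved for 2 h to EMM-Leu without glucose, with 4% sucrose and 15 mM hydroxyurea. Cells were fixed with 1% formaldehyde, DNA was sheared to fragments of 400 to 600 bp, and DNA bound to FLAG was labelled with Cy5 and whole-cell extract DNA with Cy3. Each genotype has 1 array, so nothing below was tested or checked against a replicate. A standard deviation (SD) over tiles describes the spread along the DNA only. No array of cells kept in glucose was analysed here, so nothing below shows a change on induction. No probe of clr3 was analysed here, and its deletion was not checked.

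Values are log2 of Cy5 over Cy3, minus the median of the array, and are called the ratio. A ratio of 0 is the level of the middle probe of that array. Median processed signals were 1057 to 1146 in Cy3 and 1062 to 1093 in Cy5, 9 to 21 spots per array were left out as outliers, and no spot was saturated. All 4 arrays shared 1 slide and 1 scan. No inv1 tile was among the outliers, and the number of arrays limits the precision. The difference between neighbouring coding tiles gave a spread of 0.10 to 0.12 for a single tile in the ratio, 0.33 to 0.34 in Cy3 and 0.40 to 0.43 in Cy5.

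The reference annotation of ASM294v3 has the inv1 coding sequence at chr3:1724306-1726051 on the forward strand, with 1746 bp and 581 codons before the stop. Its transcript runs from 1723434 to 1726164 with 872 bp of 5′ untranslated region, so the upstream tiles lie over DNA annotated as transcribed. The files name no build; a shift of 908 bp between their coordinates and ASM294v3 was inferred from tiles of inv1 and nmt1 together, which puts the start codon at 1725214 and the end of the stop codon at 1726959 in the files' coordinates. Tile centres then run from -784.5 to 2116 bp relative to the start codon. A shift of 900 bp, from the size of the assembly gap alone, sorted the 59 tiles in the same way. On inv1 alone the placement was not settled: the level of the 43 tiles past the drop placed best at 910 bp, their neighbour differences at 242 bp, and all 59 tiles at -376 or 254 bp. The inv1 coding start is shown because, by the placement used here, the ratio steps down there. The inv1 coding end is shown because the low ratio went on past it. The start of hht2, a gene of histone H3 on chromosome II, is also shown. Its tiles were among the few that came near the inv1 upstream tiles. All sequences are from RefSeq, ASM294v3, 5′ to 3′ on the forward strand, with the start or stop codon in capitals.
inv1 coding start, chr3:1724306-1724605: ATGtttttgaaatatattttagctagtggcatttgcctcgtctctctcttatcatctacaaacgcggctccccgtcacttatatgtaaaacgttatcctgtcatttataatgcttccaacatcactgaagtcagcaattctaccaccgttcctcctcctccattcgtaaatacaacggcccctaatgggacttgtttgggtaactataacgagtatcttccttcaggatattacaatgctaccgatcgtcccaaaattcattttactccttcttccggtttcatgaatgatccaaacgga
inv1 coding end, chr3:1725992-1726051: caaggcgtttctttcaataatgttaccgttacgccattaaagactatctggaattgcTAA
hht2 coding start, chr2:1365158-1365277: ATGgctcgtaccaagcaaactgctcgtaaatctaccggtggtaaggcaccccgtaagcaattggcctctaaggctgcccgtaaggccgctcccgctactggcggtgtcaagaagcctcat

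In all 4 genotypes the tiles just upstream of the inv1 start codon had a far higher ratio than the coding tiles. Any plasmid copies of this DNA are read together with the chromosome, and their part was not tested. The mean ratio of the 16 upstream tiles was 2.19 ± 0.22 in WT, 1.76 ± 0.22 for clr3D, 1.68 ± 0.22 for IRD2 and 1.56 ± 0.25 in IRD2 clr3D (SD over tiles). In WT that is 4.55 times the array median. The 35 coding tiles had means of 0.55 ± 0.20 in WT, 0.23 ± 0.23 for clr3D, 0.064 ± 0.24 for IRD2 and -0.063 ± 0.24 in IRD2 clr3D. The 8 downstream tiles stood at 0.48 ± 0.078, 0.090 ± 0.063, -0.035 ± 0.076 and -0.19 ± 0.070 in the same order. WT was thus the highest array and the double mutant the lowest in every segment. In the coding sequence the means of clr3D and IRD2, and of IRD2 and the double mutant, lay within 1 SD over tiles of each other. That SD is of levels along the gene. Tile by tile the double mutant differed from IRD2 by -0.13 ± 0.11.

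The upstream and coding tiles did not overlap in any array. In WT the lowest upstream tile had 1.82 and the highest coding tile 1.12. In clr3D these values were 1.35 and 0.78, in IRD2 1.19 and 0.68, and in the double mutant 1.18 and 0.59. The mean of the upstream tiles exceeded that of the coding tiles by 1.63 in WT, 1.54 for clr3D, 1.61 for IRD2 and 1.62 in IRD2 clr3D, that is by 3.1, 2.9, 3.1 and 3.1 times. In this ratio the height of the step therefore differed little between genotypes, while both of its sides differed. The steps were less alike with loess within each array, at 1.54, 1.20, 1.51 and 1.33. In the FLAG channel alone they were 1.70, 1.80, 1.83 and 2.13.

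Part of the fall took place between 2 neighbouring tiles, and the rest was spread over tiles on both sides. In WT the bins of 200 bp from -400 to 400 bp averaged 2.24, 2.11, 0.95 and 0.68. The last upstream tile, at chr3:1725150-1725209, had a ratio of 1.82 in WT, 1.35 for clr3D, 1.19 for IRD2 and 1.26 in IRD2 clr3D. The next, at chr3:1725200-1725259, which holds the start codon by the placement used here, had 0.93, 0.78, 0.51 and 0.52. The drop of 0.57 to 0.89 over 50 bp was 5 or more times the spread of a single tile, and was shorter than the 400 to 600 bp of the sheared fragments.

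**Figure D1:**
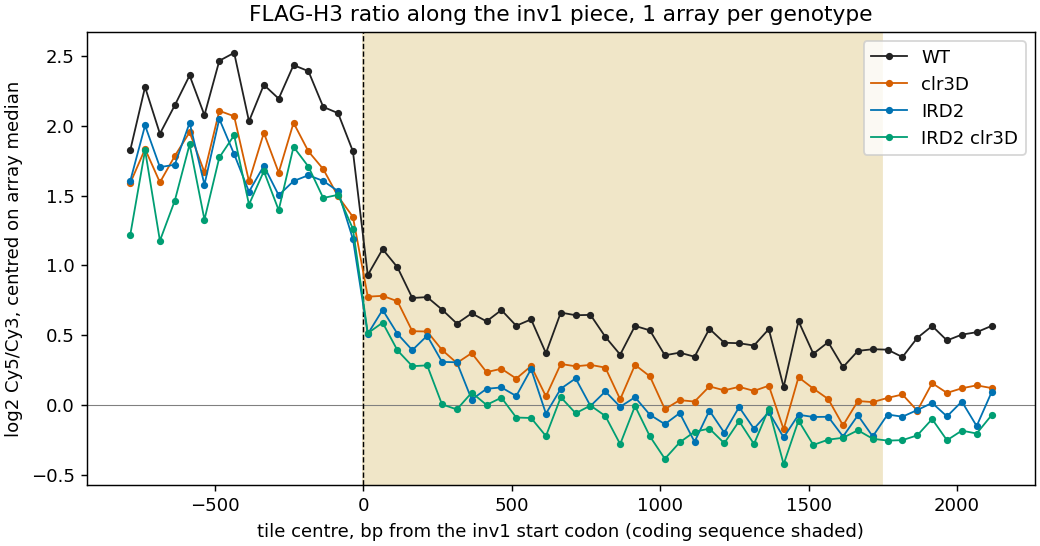
Ratio of FLAG-precipitated over extract DNA (log2, centred on the array median) for each of the 59 tiles, plotted by the distance of the tile centre from the inv1 start codon; each line is 1 array and the shaded span is the coding sequence. Upstream tiles lie between 1.18 and 2.52 and coding tiles between -0.42 and 1.12. The step falls at the start codon in all 4 arrays by the placement used here, which inv1 alone did not settle.

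Within the upstream tiles the ratio moved up and down by tile rather than rising toward the start codon. In WT the 4 tiles farthest from the start codon averaged 2.05 ± 0.20. Averages were 2.36 ± 0.20 between 600 and 400 bp, 2.24 ± 0.17 between 400 and 200 bp and 2.11 ± 0.24 in the last 200 bp. The double mutant had 1.42 ± 0.30, 1.73 ± 0.27, 1.59 ± 0.21 and 1.49 ± 0.18 in the same bins. The highest tile in WT, with its centre at -434.5 bp from the start codon, had 2.52.

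Within the gene the ratio sloped down from the start codon. In WT the tiles between 200 and 400 bp had a mean of 0.68 ± 0.078, those between 600 and 800 bp 0.58 ± 0.14, those between 1000 and 1200 bp 0.41 ± 0.094 and those between 1600 and 1800 bp, the last of them past the stop codon, 0.37 ± 0.062 (4 tiles each). In the double mutant the same bins had 0.088 ± 0.14, -0.056 ± 0.12, -0.25 ± 0.098 and -0.23 ± 0.033. The last 7 tiles, past the stop codon, had 0.49 ± 0.076 in WT and -0.18 ± 0.071 in the double mutant. These downstream tiles also lie over the annotated non-coding RNA gene SPNCRNA.1224, so their level cannot be given to inv1 alone.

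Each channel was then read alone. The FLAG channel alone, centred on its array median, averaged 3.23 in WT, 3.14 for clr3D, 3.16 for IRD2 and 3.26 in IRD2 clr3D over the upstream tiles, and 1.53, 1.34, 1.32 and 1.13 over the coding tiles. The extract channel averaged 1.03, 1.35, 1.47 and 1.69 upstream and 0.96, 1.09, 1.2496 and 1.18 in the coding sequence. Probes of the 2 segments differ in base composition, so these levels are read between arrays and not between segments.

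**Figure D2:**
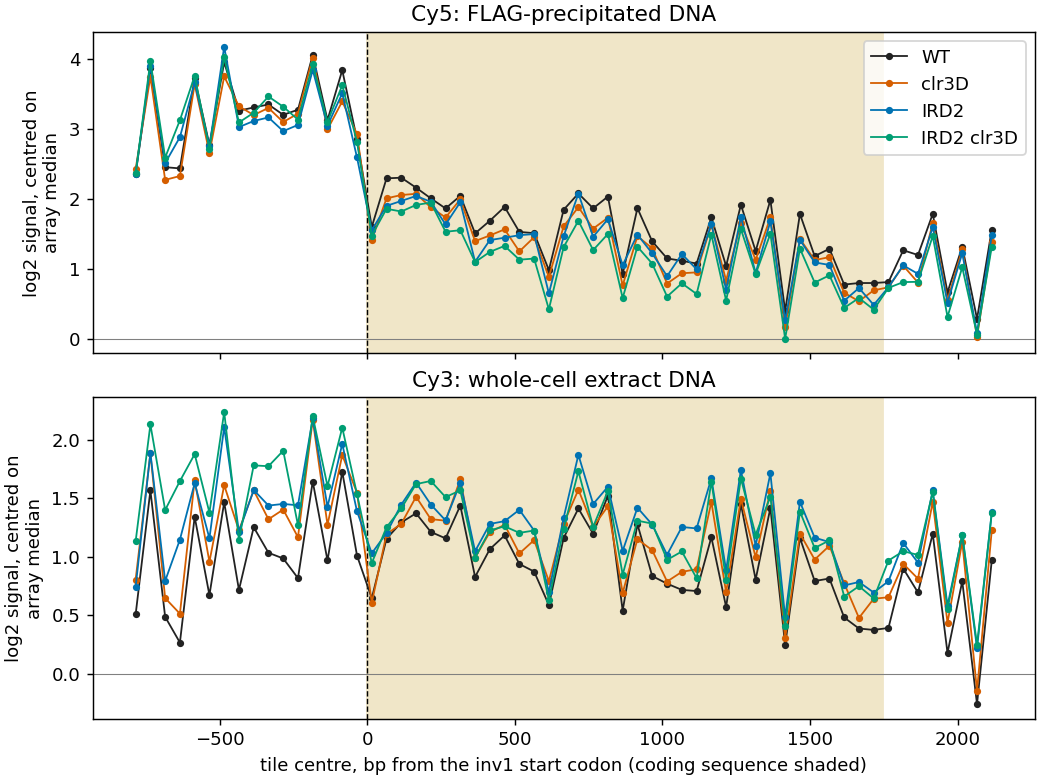
Signal of each channel (log2, centred on the array median of that channel) along the 59 tiles, FLAG-precipitated DNA above and whole-cell extract DNA below; each line is 1 array and the shaded span is the coding sequence. The FLAG channel steps down at the start codon, by the placement used here, in all arrays. The extract channel of the upstream tiles is lowest in WT (mean 1.03) and highest in the double mutant (mean 1.69).

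The extract signal itself stood high over inv1. For a comparison between segments, each tile was set against the chromosome II tiles of like GC content (within 1 base). Upstream tiles, with a mean GC content of 29.3%, exceeded them in Cy3 by 1.37 ± 0.53 in WT, 1.68 ± 0.51 for clr3D, 1.79 ± 0.49 for IRD2 and 1.95 ± 0.46 in IRD2 clr3D, and all 16 did so in every array. Coding tiles, with 42.9% GC, exceeded theirs by 0.77 ± 0.35, 0.87 ± 0.35, 1.03 ± 0.33 and 1.01 ± 0.34, and downstream tiles theirs by 0.57 ± 0.56, 0.75 ± 0.58, 0.90 ± 0.51 and 0.94 ± 0.49. In the FLAG channel the excess over like-GC tiles was 3.63 ± 0.61 upstream and 1.27 ± 0.51 in the coding sequence in WT, and 3.58 ± 0.58 and 0.91 ± 0.50 in the double mutant. In the ratio it was 2.25 ± 0.21 and 0.49 ± 0.23 in WT, and 1.62 ± 0.25 and -0.12 ± 0.25 in the double mutant. Both channels were therefore higher upstream than in the coding sequence, the FLAG channel by more. The coding sequence of nmt1, the thiamine-repressible gene on the same chromosome, did not stand above its like-GC tiles in this way (-0.39 ± 0.28 in WT, 31 tiles).

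Sequence carried by a plasmid is present in extract and precipitate in plasmid copies as well as in the chromosome, and the array cannot separate them. The labels do not say which inv1 DNA pINV1-H3.2-FLAG holds, and its part in the upstream values was not tested. Of all probes, 33 in WT reached the lowest upstream value of inv1: the 16 upstream tiles, 7 of the 8 tiles in the hht2 coding sequence, the 8 tiles past the nmt1 stop codon and 2 others. The same rule gave 183, 141 and 153 probes in clr3D, IRD2 and IRD2 clr3D, of which 153, 110 and 122 lay outside these 3 blocks. In all, 29 probes passed in all 4 arrays: 16 of inv1, 6 of hht2 and 7 past nmt1, with 0 others. In WT the ratio averaged 2.06 ± 0.15 over the hht2 coding sequence and 2.12 ± 0.18 past nmt1. It was 0.80 ± 0.12 in the 8 tiles before hht2, 0.52 ± 0.35 in the 8 after it and 1.02 ± 0.23 in the nmt1 coding sequence. In Cy3 these blocks also stood above like-GC tiles, hht2 coding by 1.02 in WT and 1.66 in the double mutant and the nmt1 block by 1.18 and 1.79.

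**Figure D3:**
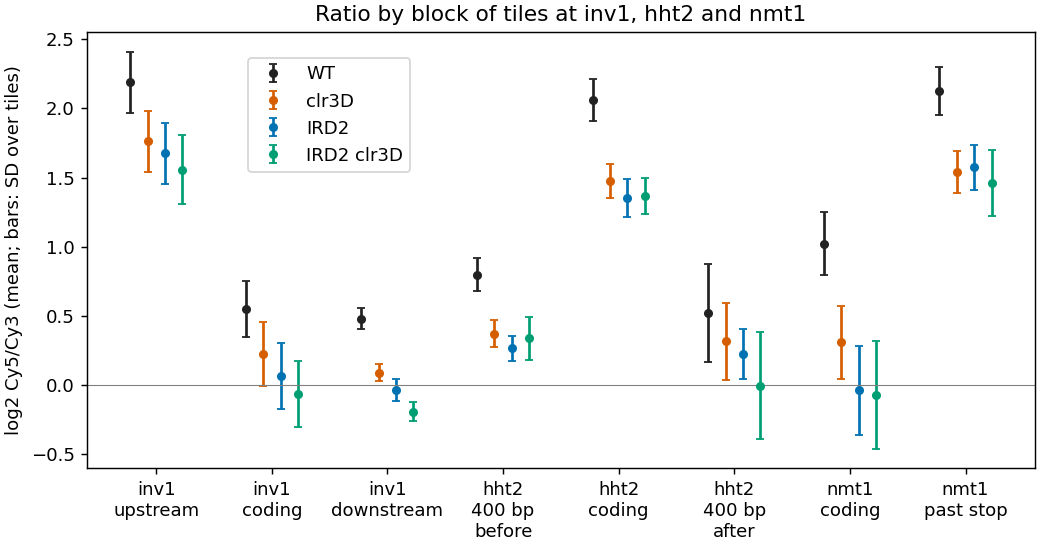
Mean ratio (log2, centred on the array median) of blocks of tiles at inv1, hht2 and nmt1, with the SD over tiles as bars and 1 point per array. The inv1 upstream, hht2 coding and nmt1 past-stop blocks stand at 2.06 to 2.19 in WT, while the blocks next to them stand at 1.02 or below.

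The 3 mutants were set against WT to ask how the ratio over inv1 differed in each. Every one of the 59 tiles had a lower ratio than WT in all 3 mutants. The share of all probes lower in all 3 was not counted and the comparisons share the WT array, so this count does not set inv1 apart. Over the coding tiles the ratio was lower by 1.26-fold in clr3D (difference -0.33 ± 0.063, SD over tiles), by 1.40-fold in IRD2 (-0.49 ± 0.11) and by 1.53-fold in the double mutant (-0.62 ± 0.081). Over the upstream tiles the differences were -0.43 ± 0.091, -0.51 ± 0.19 and -0.63 ± 0.095, and over the downstream tiles -0.39 ± 0.073, -0.52 ± 0.075 and -0.67 ± 0.043. All of these exceed the spread of a single tile, which is a spread along the DNA and not between arrays or cultures. The upstream value of clr3D was -0.72 with loess within each array, and that of IRD2 was -0.18 when arrays were scaled to one median absolute deviation.

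Counted by tile, a ratio at least 0.32 below WT was met by 20 of 35 coding tiles in clr3D, by 33 in IRD2 and by 35 for the double mutant. Among all probes of the array 4.79% were that much lower in clr3D, against 10.8% in IRD2 and 11.6% for the double mutant. Upstream it was met by 15, 13 and 16 of 16 tiles, and downstream by 7, 8 and 8 of 8. Of 862 genes with 10 or more probes, 1.51% had a mean lower by 0.32 or more in clr3D, 4.99% in IRD2 and 5.1% for IRD2 clr3D. Against the 861 other genes, the inv1 coding tiles had a lower difference than all but 11 in clr3D, all but 11 in IRD2 and all but 6 for IRD2 clr3D. By level, the coding tiles stood above 94.5% of these genes in WT, 75.8% for clr3D, 59.8% for IRD2 and 35.5% in IRD2 clr3D. On this measure the coding tiles were at the upper end in WT and below the middle in the double mutant. The other genes were averaged over their whole annotated transcript, so the spans compared are unlike. Over the 53 probes of its own transcript inv1 had 1.04, 0.68, 0.55 and 0.42 in the same order. Its rank among genes by that span was not computed. The mean of all 59 tiles lay above 98.9% of single probes in WT and above 85.7% in the double mutant. The place below the middle therefore holds for the coding tiles only. These comparisons share the WT array.

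**Figure D4:**
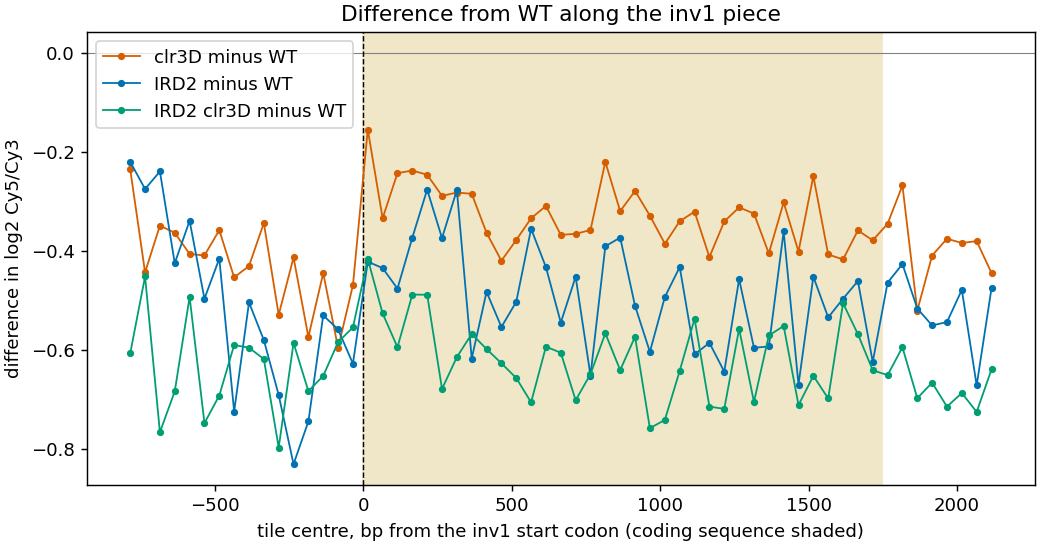
Difference in ratio (log2) of each mutant from WT for each of the 59 tiles, plotted by distance from the start codon, with the coding sequence shaded; each line is 1 mutant array minus the WT array. All points lie below 0, the double mutant between -0.80 and -0.42.

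Along the DNA the differences varied most upstream in IRD2. In IRD2 the 8 tiles nearest to the start codon on the upstream side differed from WT by -0.63 ± 0.11 and the 8 farther ones by -0.39 ± 0.17. In clr3D these values were -0.48 ± 0.086 and -0.38 ± 0.069, and in the double mutant -0.63 ± 0.078 and -0.63 ± 0.11. In the gene the difference of clr3D went from -0.30 ± 0.073 in the first 600 bp to -0.35 ± 0.051 between 1200 and 1800 bp. That of IRD2 went from -0.43 ± 0.10 to -0.53 ± 0.095, and that of the double mutant from -0.58 ± 0.086 to -0.63 ± 0.074. These changes within the gene were no larger than about 1 SD over tiles.

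The channels divided these differences in another way upstream than in the coding sequence. Over the upstream tiles the FLAG signal alone differed from WT by -0.096 ± 0.12 for clr3D, -0.078 ± 0.20 for IRD2 and 0.027 ± 0.21 in IRD2 clr3D, all within the spread over tiles. The extract signal there was higher than in WT in all 16 tiles of each mutant, by 0.32 ± 0.12, 0.44 ± 0.17 and 0.67 ± 0.25. The share of all probes that were higher was not counted, so this count does not set inv1 apart. Over the coding tiles the FLAG signal differed from WT by -0.19 ± 0.095 for clr3D, -0.21 ± 0.15 for IRD2 and -0.40 ± 0.12 in IRD2 clr3D. The extract signal was higher by 0.13 ± 0.10, 0.29 ± 0.13 and 0.22 ± 0.13. The upstream difference in the ratio therefore rests on the extract channel, and the coding difference on both channels. In the hht2 coding block the FLAG signal differed from WT by -0.13 ± 0.078, -0.14 ± 0.13 and -0.084 ± 0.15, and the extract signal by 0.45 ± 0.095, 0.57 ± 0.14 and 0.61 ± 0.20. Past nmt1 these values were -0.12 ± 0.22, -0.16 ± 0.10 and -0.021 ± 0.15 in FLAG and 0.45 ± 0.21, 0.40 ± 0.097 and 0.65 ± 0.22 in extract.

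**Figure D5:**
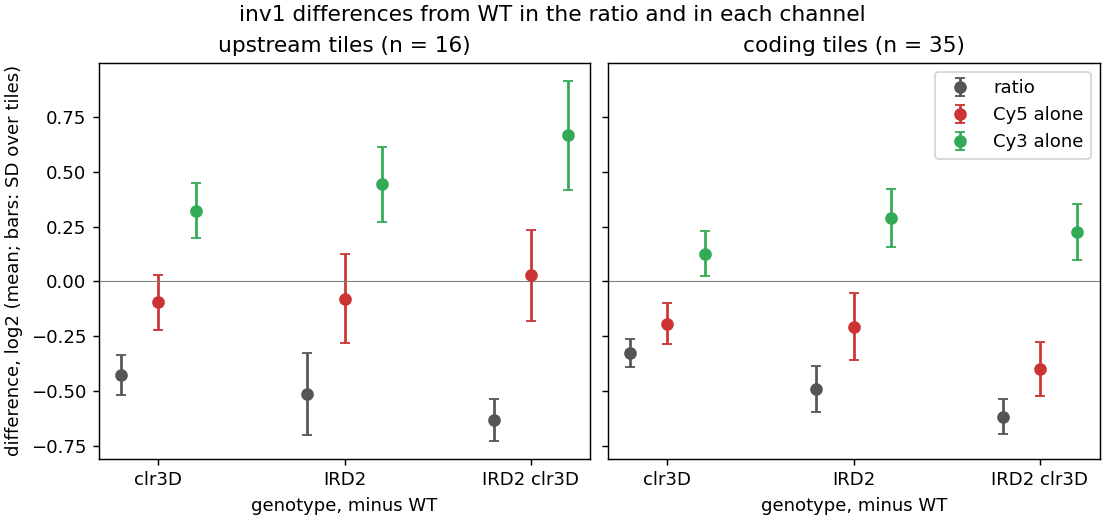
Mean difference from WT (log2) of the ratio and of each channel alone, for the 16 upstream and the 35 coding tiles of inv1; bars are the SD over tiles. Upstream the FLAG channel stays between -0.096 and 0.027, while in the coding sequence it is lower in all mutants, down to -0.40.

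In the FLAG channel alone, 35 of 861 other genes had a lower difference than the inv1 coding tiles in clr3D, 61 in IRD2 and 16 in IRD2 clr3D. In the extract channel 96, 10 and 52 genes had a higher one.

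Loss of clr3 was also read with and without IRD2. In the ratio, the coding tiles differed by -0.33 between clr3D and WT and by -0.13 ± 0.11 between the double mutant and IRD2, where 30 of 35 tiles were lower. The second value was -0.24 with loess and -0.20 with normexp. In the FLAG channel alone they were -0.19 ± 0.095 and -0.19 ± 0.12, and in the extract channel 0.13 and -0.066. Over the upstream tiles the ratio gave -0.43 and -0.12, and the FLAG channel alone -0.096 and 0.11. Tile by tile the 2 FLAG values differed by 0.20 ± 0.16. IRD2 in clr3D cells, that is the double mutant against clr3D, gave -0.29 ± 0.073 in the coding ratio, with all 35 tiles lower. By the same limit of 0.32, 2 and 11 of the 35 coding tiles were lower in the 2 comparisons, against 5.12% and 7.59% of all probes. Whether the effect of clr3 differs with IRD2 cannot be tested with 1 array per genotype.

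Other genes of sugar use and glucose sensing were mostly outside the tiled DNA: of 36 listed, 5 had 3 or more probes, inv1 included. The remaining 4 had a median difference from WT of 0.087 for clr3D, -0.077 for IRD2 and -0.042 in IRD2 clr3D, where the median over all 895 genes was between -0.0053 and 0.0019. At scr1, the gene of the glucose repressor, the ratio was 0.34 in WT, 0.37 for clr3D, 0.11 for IRD2 and -0.036 in IRD2 clr3D. At git5, which encodes a G protein beta subunit of glucose sensing, it was 0.22, 0.039, 0.054 and -0.12. Both were lower than WT by 0.32 or more in the double mutant, as were 5.1% of the genes with 10 or more probes. At cyr1, the adenylate cyclase gene, it was -0.23, -0.082, -0.12 and 0.035, and at gal1, the galactokinase gene, with 9 probes, -0.020, 0.46, -0.0042 and 0.31. None of these 4 genes was lower than WT by that much in all 3 mutants. Of the genes with 10 or more probes only 1.51% were so in clr3D alone, so this does not set inv1 apart.

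The genes whose 3 differences from WT lay nearest to those of the inv1 coding tiles, by Euclidean distance among genes with 10 or more probes, were hhf2 (distance 0.13), dbl7 (0.15), hht2 (0.16), sua1 (0.21) and mug124 (0.22). At hhf2, a gene of histone H4, the differences were -0.43 for clr3D, -0.54 for IRD2 and -0.68 in IRD2 clr3D. At hht2 they were -0.45, -0.58 and -0.61, over 14 probes that include the high block above. At dbl7 they were -0.32, -0.36 and -0.53, from a WT ratio of 0.17. At sua1, which encodes sulfate adenylyltransferase, they were -0.52, -0.48 and -0.53, and at mug124 -0.30, -0.67 and -0.49.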

How the data were processed

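Per the file headers, the authors' scanner files give the intensity of each spot as read by Agilent Feature Extraction 12.0.3.1, with 1227 control spots beside the 43993 probes. A deposited table of the linear ratio between the dyes matched the processed signals. Processed Cy5 was divided by processed Cy3, put on the log2 scale and centred on the median of its array. Control and outlier spots were left out, and no loess was applied. Probes were averaged over the annotated transcript of each gene. Where inv1 was set against other genes, it was taken over its coding tiles. A call means a log2 difference of 0.32 or more. With 1 array per genotype no test was run. Gene means and calls were checked on simulated data.

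The genome build is not given in the sources used here. The shift to ASM294v3 came from the assembly gap, 100 bp in the reference and 1000 bp in the array (900 bp), and from a model of Cy3 on probe sequence (LightGBM 4.6.0, r = 0.572 on 12581 held-out probes of chromosome II). Over 43 inv1 tiles past the drop and 30 nmt1 tiles, which were chosen after the drop was seen, it gave 908 bp. All 59 inv1 tiles together did not place (best shift -376 bp by level). Neighbour differences of the 43 tiles alone placed best at 242 bp. Normexp (limma 3.58.1 in R 4.3.3, offset 50) used median signals, as the files used here have no mean signal.

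The inv1 tiles, gene lists and comparisons were chosen with earlier results of these data known. The genes named were inv1, hht2, nmt1, measured members of the sugar list and the 5 genes nearest in their differences from WT.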

Additional observations from a re-analysis of the deposited data

How the results depend on the processing

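No paired analysis was possible because each genotype has 1 array. Series matrix ratios, raw median signals, medians over probes, outlier spots kept, probes well above background and, chosen after seeing the data, a shift of 900 bp left all 22 levels, differences and steps within 1 SD over tiles of their value. Leaving out tiles within 200 bp of the start codon did so for all 14 differences and steps. For some settings this was nearly fixed beforehand. The deposited ratio matches the processed signals, no inv1 tile was an outlier, and a shift of 900 bp sorts the tiles alike. Every difference from WT stayed below 0 in the ratio under every setting. Values that moved by more follow, in the order WT, clr3D, IRD2 and double mutant for levels and steps, and clr3D, IRD2 and double mutant minus WT for differences. Why they moved was not tested.

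With Cy5 alone, levels were 3.23, 3.14, 3.16 and 3.26 upstream and 1.53, 1.34, 1.32 and 1.13 in the coding sequence, and the step was 2.13 in the double mutant. Differences were -0.096, -0.078 and 0.027 upstream, the last reversed, and -0.19, -0.21 and -0.40 in the coding sequence. The double mutant differed from IRD2 by 0.11 and from clr3D by 0.12 upstream, and from clr3D by -0.21 in the coding sequence. With Cy3 alone, levels were 1.03 in WT and 1.35 in clr3D upstream and 0.96, 1.09, 1.2496 and 1.18 in the coding sequence, with steps of 0.070, 0.26, 0.22 and 0.51. All 6 differences from WT reversed, to 0.32, 0.44 and 0.67 upstream and 0.13, 0.29 and 0.22 in the coding sequence. The double mutant differed from IRD2 by 0.22 and from clr3D by 0.34 upstream, and from clr3D by 0.098 in the coding sequence.

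Loess within each array took upstream levels to 1.89, 1.17, 1.40 and 0.98 and coding levels to -0.037 in clr3D and -0.35 in the double mutant, with a step of 1.20 in clr3D. Upstream differences were then -0.72 in clr3D and -0.91 in the double mutant, and the coding one -0.70 in the double mutant. The double mutant differed from IRD2 by -0.42 upstream and -0.24 in the coding sequence. Normexp gave -0.57 in clr3D and -0.85 in the double mutant upstream. In the coding sequence it gave -0.40, -0.64 and -0.83, and the double mutant minus clr3D was -0.43. Centring on chromosome 3 gave -0.52 upstream and -0.42 in the coding sequence for clr3D, and -0.19 for the coding double mutant minus clr3D. Scaling to one median absolute deviation gave -0.18 in IRD2 and -0.48 in the double mutant upstream. At 1.5-fold, 2 genes were lower in clr3D, 7 in IRD2 and 8 for the double mutant, where the limit of 0.32 on the log2 scale gave 13, 43 and 44.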
